A study of Mus musculus with 12 samples.

Results

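The troponin and tropomyosin genes expressed in striated muscle were examined in single muscle fibers of the extensor digitorum longus (EDL), a fast muscle of the mouse hindlimb. They were taken by gene name: *Tnnt3*, *Tnni2*, *Tnnc2*, *Tnnt1*, *Tnni1*, *Tnnc1*, *Tnnt2*, *Tpm1*, *Tpm2* and *Tpm3*, which are 10 of the 55367 gene symbols in the files. RNA was sequenced from 12 samples of collagenase-isolated myofibers from C57BL/6J mice in 3 groups of 4. The Young group came from mice of 3–4 months. Aged mice of 26–28 months gave the Fluo-4 normal and the Fluo-4 abnormal groups, which were picked apart under a fluorescence stereomicroscope by their staining with Fluo-4, a fluorescent Ca2+ indicator. Fluo-4 abnormal fibers stain more strongly and hold tubular aggregate-like structures of the sarcoplasmic reticulum, as the study describes. The study described such fibers in aged male mice, hardly any in aged females and none in young mice, and no young Fluo-4 abnormal fibers were sequenced. No treatment or genetic change was used in these samples. The sources do not give the number of fibers or mice behind a sample, and the labels do not say whether samples of a group came from separate mice, so the p-values here measure the spread between these samples.

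Tropomyosin is a coiled coil that lies along the actin filament, and the troponin complex sits on it at regular intervals. Troponin T binds the complex to tropomyosin, troponin I inhibits the interaction of actin with myosin, and troponin C binds Ca2+ and relieves that inhibition. Fast fibers use *Tnnt3*, *Tnni2* and *Tnnc2*, and slow fibers use *Tnnt1*, *Tnni1* and *Tnnc1*, of which *Tnnc1* also serves the heart. *Tnnt2* is the cardiac troponin T gene and is used by skeletal muscle during development. *Tpm1* encodes α-tropomyosin, *Tpm2* β-tropomyosin and *Tpm3* the α-tropomyosin of slow fibers.

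The values were TPM (transcript abundances scaled to a fixed total, 1000000 in each sample), a unit that corrects for depth and for transcript length, so levels of different genes can be set side by side. How many reads a value rests on is not known. Genes above 0 TPM numbered 16841 to 17936 per sample. The summed level of 5 myofiber marker genes was 61142 to 84196 TPM over the 12 samples. Markers of other cells were far lower, with summed levels of at most 128 TPM for 6 smooth muscle markers, 82.4 TPM for 6 fibroblast markers, 482 TPM for 5 erythroid markers and 15.1 TPM for 5 immune markers. The sum of the immune markers was 0.718 to 1.47 TPM in Young, 5.09 to 15.1 in Fluo-4 normal and 7.39 to 11.3 in Fluo-4 abnormal samples, and that of satellite cell and endothelial markers was at most 14.3 and 9.97 TPM. Most of the immune sum in the aged samples was *Lyz2*, which averaged 0.743 TPM in Young, 7.46 in Fluo-4 normal and 8.01 in Fluo-4 abnormal samples. *Cd68* averaged 0.282, 0.282 and 1.04 TPM in these groups. *Ptprc*, *C1qa* and *Adgre1* were at most 0.262, 0.68 and 0.011 TPM in any sample.

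Of the 10 genes, only *Tpm1* and *Tpm2* passed the test in the main limma fit, and these calls depended on the processing, as given below. Relative to either other group, the Fluo-4 abnormal fibers had higher *Tpm1* and lower *Tpm2*, whereas no member passed the test between Fluo-4 normal and Young fibers. *Tpm1* (ENSMUSG00000032366) lies at chr9:66929870-66956953 on the minus strand of GRCm39, and *Tpm2* (ENSMUSG00000028464) at chr4:43514697-43524949 on the minus strand (GENCODE vM39). Their sequences are shown because they are the members called, in opposite directions. Each line gives the 250 bases upstream of the start of the gene's canonical transcript, 5′ to 3′ on the gene's strand (GRCm39). Capitals mark E-boxes (CANNTG, the binding motif of the myogenic basic helix-loop-helix factors) and MCAT elements (CATTCC, the motif of TEA domain factors), searched on both strands. The *Tpm1* window is chr9:66956938-66957187, and 38 of the 80 annotated transcripts start at its edge. The *Tpm2* window is chr4:43524562-43524811, with 20 of 43 transcripts starting there.
Tpm1: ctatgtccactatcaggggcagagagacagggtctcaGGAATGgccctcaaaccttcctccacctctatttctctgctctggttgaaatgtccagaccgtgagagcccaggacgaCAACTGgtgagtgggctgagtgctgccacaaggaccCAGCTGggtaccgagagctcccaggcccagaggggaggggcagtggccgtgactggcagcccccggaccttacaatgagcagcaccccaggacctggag
Tpm2: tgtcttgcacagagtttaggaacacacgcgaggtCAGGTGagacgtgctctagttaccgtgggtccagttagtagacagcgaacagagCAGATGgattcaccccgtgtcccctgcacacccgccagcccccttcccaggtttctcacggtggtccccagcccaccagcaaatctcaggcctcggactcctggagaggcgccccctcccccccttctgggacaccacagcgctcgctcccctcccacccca
The *Tpm1* window held 2 E-boxes and 1 MCAT element, written as GGAATG on the shown strand. The *Tpm2* window held 2 E-boxes and 0 MCAT elements. No capitals of the 2 motifs overlapped. E-boxes were found in 64.8% of 21751 windows of the same length upstream of protein-coding genes, and in all 10 members, with 1 to 4 matches. MCAT elements were found in 12.1% of the windows and in 2 members, *Tpm1* and *Tnnc1*. The MEF2 and CArG motifs, present in 2.8% and 1.4% of the windows, matched in 0 of the 10 members. These matches describe letters in a window and are not binding sites.

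The members fell into a high and a low set (plot of the members in each sample). The 3 fast troponins together held 9.44% to 12.1% of all TPM, and the 10 members together 11.3% to 15.1%. *Tnnc2* was the most abundant member, ranked between 1 and 3 among all gene symbols in the 12 samples. It was followed by *Tnnt3* and *Tnni2*, then *Tpm1*, then *Tpm2*, in every group. *Tnnt3* and *Tnni2* were apart in the Young samples, but their sample ranges overlapped in the Fluo-4 normal and in the Fluo-4 abnormal samples. All other neighbors in this order down to *Tpm3* and *Tnnt2* had separate ranges in each group. The slow troponins came last, with ranges that overlapped each other. In the Fluo-4 normal samples the range of *Tnnt2* also overlapped that of *Tnnt1*.

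**Figure D1:**
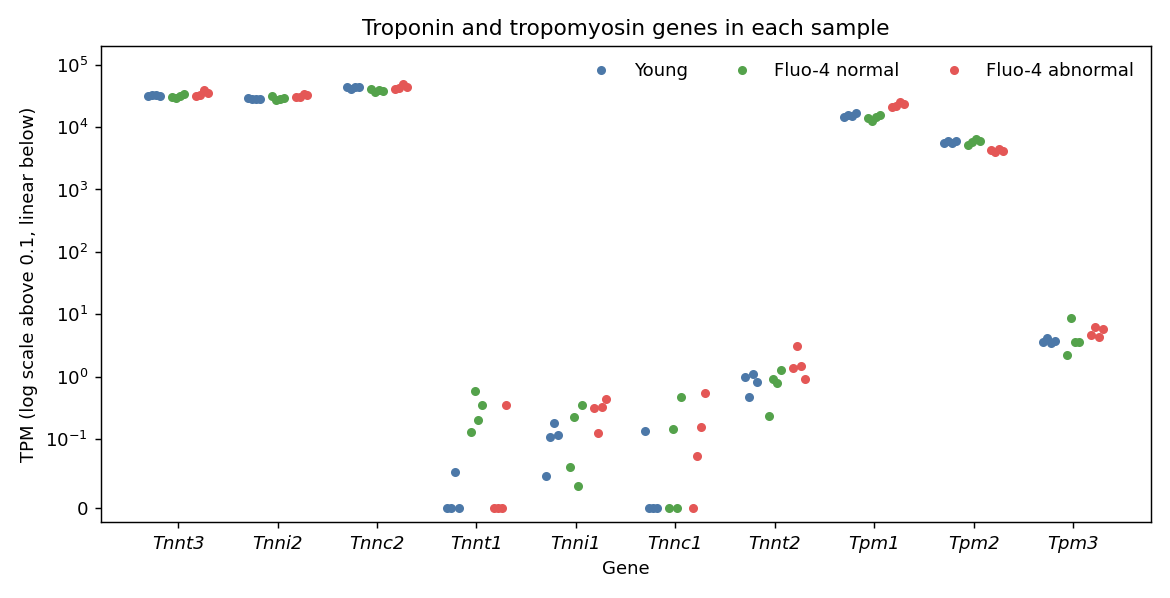
TPM of the 10 troponin and tropomyosin genes (y axis, logarithmic above 0.1 and linear below) in the 4 Young (blue), 4 Fluo-4 normal (green) and 4 Fluo-4 abnormal (red) samples, 1 point per sample. The fast troponins, *Tpm1* and *Tpm2* lie at 3960 TPM or above in every sample, and the slow troponins below 1 TPM.

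*Tpm1* stood at 14369, 15847, 15204 and 16604 TPM in Young samples 1 to 4. Its level in Fluo-4 normal samples was 13892, 12689, 14424 and 15622 TPM. In the Fluo-4 abnormal samples it was 21263, 21447, 25563 and 23735 TPM. All Fluo-4 abnormal samples were above all others, and the Young and Fluo-4 normal samples overlapped. The group means were 15506 ± 949.6 in Young, 14157 ± 1217 in Fluo-4 normal and 23002 ± 2044 TPM in Fluo-4 abnormal samples (SD, n = 4). On the log2(TPM + 1) scale, *Tpm1* was 0.70 higher in Fluo-4 abnormal than in Fluo-4 normal samples (SE 0.11, limma adjusted p = 0.00242). It was 0.57 higher than in Young samples (SE 0.11, limma adjusted p = 0.00617). Between Fluo-4 normal and Young samples the difference was -0.13 (95% confidence interval -0.36 to 0.10, limma adjusted p = 0.651).

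*Tpm2* moved the other way. Its levels were 5499, 5992, 5612 and 6083 TPM in Young and 5237, 5824, 6402 and 6039 TPM in the Fluo-4 normal samples. In the Fluo-4 abnormal samples they were 4249, 3960, 4438 and 4133 TPM. Every Fluo-4 abnormal sample was below every other sample, and the other groups overlapped. *Tpm2* fell by 0.48 on the log2 scale against Fluo-4 normal samples (SE 0.08, limma adjusted p = 0.00406) and by 0.47 against Young samples (SE 0.08, limma adjusted p = 0.00449). Fluo-4 normal and Young samples differed by 0.02 (95% confidence interval -0.16 to 0.20, limma adjusted p = 0.967).

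A sample's value cannot tell a share of fibers with another level from a change within each fiber. A gene-level value also sums the splice forms of *Tpm1*, which differ between fast muscle, smooth muscle and other cells, so the form behind the higher level was not resolved. Smooth muscle also uses *Tpm1* and *Tpm2*. The summed level of its 6 markers was 49.1 to 64.9 TPM in Fluo-4 normal, 55.3 to 69.0 TPM in Fluo-4 abnormal and 65.1 to 128 TPM in Young samples. Most of each sum was *Smtn*, at 46.9 to 70.5 TPM, and the 128 came from Young sample 2, where *Acta2* was 37.1, *Tagln* 15.3, *Myh11* 6.44 and *Cnn1* 3.18 TPM. In the other 11 samples *Acta2* was at most 4.13 TPM and *Cnn1* was listed at 0. Their part in the *Tpm1* result was not tested.

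The direction of *Tpm1* and *Tpm2* held under every alternative run in both comparisons with the Fluo-4 abnormal samples, but the calls depended on the scaling, the replicate block and, as given with the myosins, a covariate. TMM-type factors divided all genes of a sample by 1 number. These factors lowered log2 TPM in the Fluo-4 abnormal samples by 0.22 relative to the Fluo-4 normal samples and by 0.17 relative to Young. With them, the *Tpm1* difference was 0.48 against Fluo-4 normal (limma adjusted p = 0.186) and 0.40 against Young (limma adjusted p = 0.254), which did not pass. *Tpm2* passed with them, at -0.71 and -0.63. Without rescaling, the median of all 14427 genes tested was 0.10 between the aged groups, and relative to it *Tpm1* was 0.60 higher and *Tpm2* 0.59 lower (log2 difference -0.59). The main fit ignores that same-numbered aged samples may be paired. With the replicate number as a block, both genes passed between the aged groups, but *Tpm1* did not pass against Young (0.57, limma adjusted p = 0.059). Young samples share only a number with the aged samples, so that block has no known pairing behind it in the comparison with Young.

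**Figure D2:**
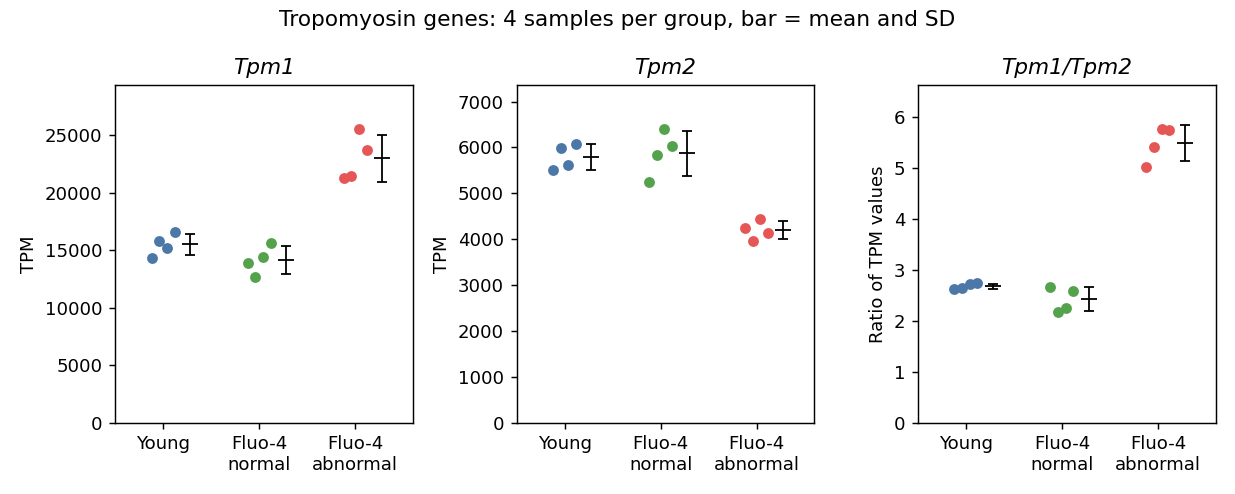
TPM of *Tpm1* (left) and *Tpm2* (middle) and their ratio (right) in each sample of the Young, Fluo-4 normal and Fluo-4 abnormal groups, with the mean and SD of 4 samples as bars and all axes from 0. The Fluo-4 abnormal samples sit apart in each panel, with ratios of 5.00 to 5.76 against 2.18 to 2.73 in the other 8 samples.

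Because both genes are read in the same sample, their ratio does not depend on how samples are scaled. The *Tpm1*/*Tpm2* ratio was 2.61, 2.64, 2.71 and 2.73 in Young samples. It was 2.65, 2.18, 2.25 and 2.59 in Fluo-4 normal samples. In Fluo-4 abnormal samples it was 5.00, 5.42, 5.76 and 5.74, so that no Fluo-4 abnormal sample overlapped the others. The mean log2 ratio was 1.18 higher in Fluo-4 abnormal than in Fluo-4 normal samples, or 2.27-fold (2-sided exact permutation p = 0.0286, adjusted p = 0.129 over 9 tests). Against Young samples it was 1.03 higher, or 2.05-fold (2-sided exact permutation p = 0.0286, adjusted p = 0.129). The value 0.0286 is the smallest p that 70 arrangements of 4 against 4 samples allow, and after adjustment neither difference passed 0.05. Between Fluo-4 normal and Young samples the log2 ratio differed by -0.15 (exact permutation p = 0.0857, adjusted p = 0.193), with overlapping samples. *Tpm1* was 72.3% to 73.2% of the summed *Tpm1*, *Tpm2* and *Tpm3* level in Young, 68.5% to 72.6% in Fluo-4 normal and 83.3% to 85.2% in Fluo-4 abnormal samples. The sum itself was 19871 to 22690 TPM in Young, 18522 to 21665 TPM in Fluo-4 normal and 25414 to 30005 TPM in Fluo-4 abnormal samples, which did not overlap the other groups in unscaled TPM. Unlike the ratio, the sum depends on how samples are scaled, and it was not tested or read with TMM-type factors.

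*Tpm3* was present at a much lower level, 3.46 to 4.16 TPM in Young and 4.38 to 6.16 TPM in Fluo-4 abnormal samples. In Fluo-4 normal samples it was 2.26, 8.78, 3.58 and 3.61 TPM, with replicate 2 above all other samples. The Fluo-4 abnormal samples were all above Young samples, yet the difference of 0.40 did not pass the test (95% confidence interval -0.17 to 0.96, limma adjusted p = 0.407). Against Fluo-4 normal samples the difference was 0.29 (limma adjusted p = 0.522), and 0.60 without Fluo-4 normal replicate 2 (limma adjusted p = 0.0622). Without that sample, the Fluo-4 normal against Young difference of 0.11 turned to -0.20, and neither passed. The *Tpm1*/*Tpm3* ratio lay between 1446 and 6147 and overlapped between all groups (exact permutation adjusted p = 0.882, 0.882 and 0.9 for Fluo-4 abnormal against normal, abnormal against Young and normal against Young). *Tpm3* has a near-identical copy, *Tpm3-rs7*, with 97.6% identity over 2111 of the 2302 bases of its canonical transcript, and reads may be split between them. The copy was listed at 0.018 to 0.494 TPM. The closest pair among the members themselves was *Tpm1* and *Tpm3*, at 80.3% identity over 533 bases, and *Tpm1* and *Tpm2* shared 78.7% over 867 bases.

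The counts of members stand beside those of all 14427 genes tested, and all 10 members passed the limit of 0.02 TPM in at least 1 group. Between Fluo-4 abnormal and Fluo-4 normal samples, 1 member of 10 was called higher and 1 lower at an adjusted p under 0.05, where 7.36% and 1.99% of all genes were. These same 2 members had groups that did not overlap, against 14.0% of all genes. Between Fluo-4 abnormal and Young samples, 1 was called higher (6.09% of all genes) and 1 lower (2.41%), and 4 did not overlap (16.2%). Between Fluo-4 normal and Young samples, 0 members were called in either direction (0.561% higher and 0.589% lower among all genes). In that comparison 2 members did not overlap (7.99% of all genes), *Tnnt1* and *Tnnc2*. There 1 member, *Tnnt1*, had an unadjusted limma p under 0.05, as did 1865 of the 14427 genes. Among uncalled members, *Tnnt1* and *Tnnt2* were under 0.05 unadjusted between the aged groups, where 3693 of all genes were. *Tnni1* and *Tnnt2* were so in Fluo-4 abnormal against Young samples, where 3323 of all genes were. The median difference of the 10 members was 0.15, 0.18 and 0.03 in the 3 comparisons, against 0.10, 0.07 and -0.02 over all genes. TMM-type factors turned the split of all calls from mostly higher to mostly lower in Fluo-4 abnormal samples, with 335 higher and 545 lower against Fluo-4 normal in place of 1062 and 287, and 464 and 679 against Young in place of 879 and 347. With 10 members, these shares are not read as particular to them.

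**Figure D3:**
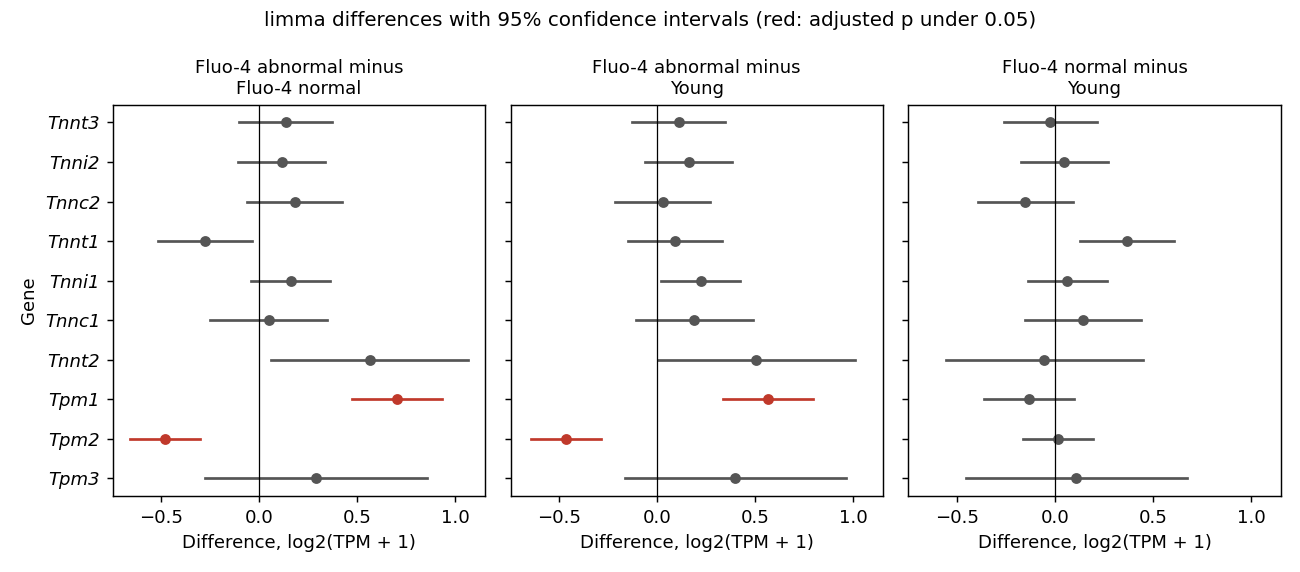
Differences of the 10 genes on the log2(TPM + 1) scale (x axis) with 95% confidence intervals from limma, for Fluo-4 abnormal minus Fluo-4 normal (left), Fluo-4 abnormal minus Young (middle) and Fluo-4 normal minus Young (right). Only the intervals of *Tpm1* (0.70 and 0.57) and *Tpm2* (-0.48 and -0.47) are in red, which marks an adjusted p under 0.05.

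None of the 3 fast troponins passed the test in any comparison. *Tnnt3*, which encodes fast troponin T, lies at chr7:142048605-142070280 on the plus strand. Its level was 31072, 32573, 32472 and 31792 TPM in Young, 30752, 29610, 31962 and 33574 TPM in Fluo-4 normal and 31602, 32838, 38950.3 and 35066 TPM in Fluo-4 abnormal samples. The groups overlapped in all comparisons. The difference between Fluo-4 abnormal and Fluo-4 normal samples was 0.13 (95% confidence interval -0.10 to 0.37, limma adjusted p = 0.481), and it was 0.11 against Young (95% confidence interval -0.13 to 0.35).

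*Tnni2*, the fast troponin I gene, is a neighbor of *Tnnt3* at chr7:141995545-141998147 on the same strand. It ran from 27749.7 to 29022 TPM in Young, from 27588 to 31569 TPM in Fluo-4 normal and from 30042 to 33956 TPM in Fluo-4 abnormal samples. All Fluo-4 abnormal samples were above all Young samples, but the difference of 0.16 did not pass (95% confidence interval -0.06 to 0.38, limma adjusted p = 0.396). Against Fluo-4 normal samples it was 0.11 (limma adjusted p = 0.527), with overlapping groups.

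*Tnnc2*, the fast troponin C gene, lies at chr2:164619075-164621887 on the minus strand. It was 43894, 41556, 43556 and 43579 TPM in Young samples, 41478, 37177, 39377 and 37484 TPM in Fluo-4 normal samples and 41064, 42178, 48534 and 44599 TPM in Fluo-4 abnormal samples. Every Fluo-4 normal sample was below every Young sample, by a difference of -0.15 that did not pass the test (95% confidence interval -0.39 to 0.09, limma adjusted p = 0.627). The Fluo-4 abnormal samples overlapped both other groups. The differences between Fluo-4 abnormal and Fluo-4 normal samples turned from positive to negative with TMM-type factors in all 3 fast troponins, so no direction is given for them. *Tnnc2* and *Ube2c* overlap on opposite strands, and *Tnnt3* overlaps *Prr33*, which these unstranded libraries cannot separate. *Ube2c* stood at 58.3 to 84.1 TPM and *Prr33* at 92.3 to 138 TPM, far below the troponins.

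The proportions of the fast thin filament genes within a sample showed the same contrast between troponin and tropomyosin. *Tnni2* per *Tnnt3* was 0.857 to 0.934 in Young, 0.884 to 1.03 in Fluo-4 normal and 0.872 to 0.957 in Fluo-4 abnormal samples, which overlapped. *Tnnc2* per *Tnnt3* was 1.28 to 1.41, 1.12 to 1.35 and 1.25 to 1.30, which overlapped too. *Tpm1* per *Tnnt3* was 0.462 to 0.522 in Young, 0.429 to 0.465 in Fluo-4 normal and 0.653 to 0.677 in Fluo-4 abnormal samples. *Tpm2* per *Tnnt3* was 0.173 to 0.191, 0.170 to 0.200 and 0.114 to 0.134. In both tropomyosin proportions the Fluo-4 abnormal samples were apart from all others. The same held against skeletal actin, *Acta1*, where *Tpm1* stood at 0.500 to 0.550 in Fluo-4 abnormal and 0.341 to 0.406 in the other 8 samples, and *Tpm2* at 0.0922 to 0.102 against 0.133 to 0.164. These proportions were chosen after the levels were seen and were not tested.

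**Figure D4:**
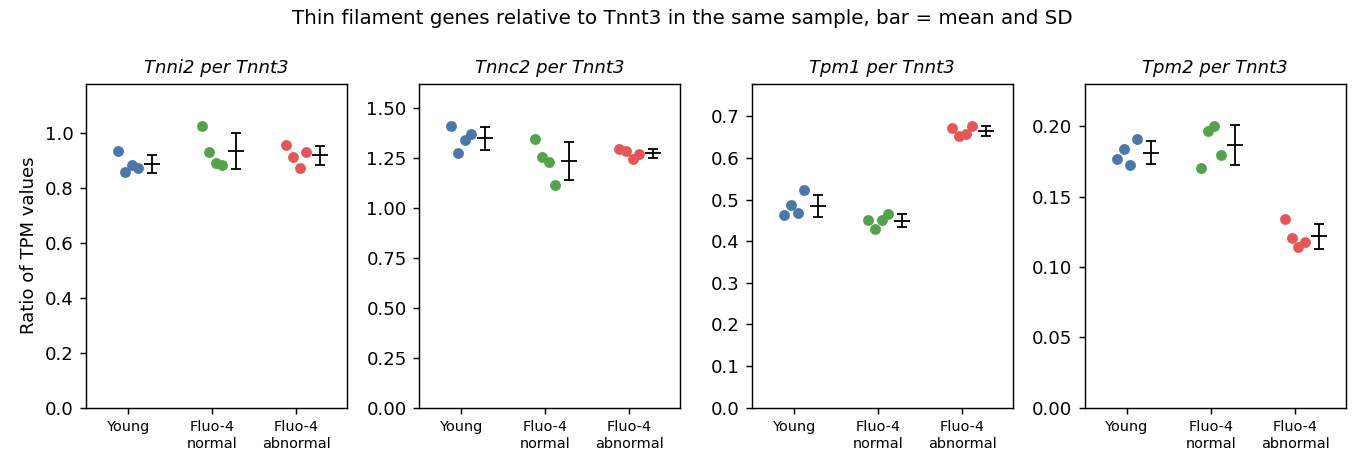
TPM of *Tnni2*, *Tnnc2*, *Tpm1* and *Tpm2* divided by the TPM of *Tnnt3* in the same sample (y axes from 0), with 1 point per sample in 3 groups of 4 and the mean and SD as bars. The troponin proportions overlap between groups, whereas *Tpm1* per *Tnnt3* is 0.653 to 0.677 in Fluo-4 abnormal samples and at most 0.522 in the others.

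The slow troponins were nearly absent. *Tnnt1*, slow troponin T (chr7:4507567-4519381, minus strand), was listed at 0 TPM in Young samples 1, 2 and 4 and at 0.052 in sample 3. In the Fluo-4 normal samples it was 0.132, 0.58, 0.201 and 0.353 TPM. In the Fluo-4 abnormal samples it was listed at 0 in samples 1 to 3 and at 0.355 in sample 4. The Fluo-4 normal samples were thus above all Young samples and overlapped the Fluo-4 abnormal samples only through sample 4. On the log2(TPM + 1) scale the difference between Fluo-4 normal and Young samples was 0.37 (95% confidence interval 0.13 to 0.61, limma adjusted p = 0.142). That between Fluo-4 abnormal and Fluo-4 normal samples was -0.28 (limma adjusted p = 0.137), and without Fluo-4 abnormal replicate 4 it was -0.38 and passed (limma adjusted p = 0.0304). Values below 1 TPM may rest on few reads, and the depth behind them is unknown.

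*Tnni1*, slow troponin I (chr1:135707172-135738727, plus strand), was above 0 in all 12 samples, at 0.046 to 0.178 TPM in Young, 0.032 to 0.353 in Fluo-4 normal and 0.126 to 0.44 in Fluo-4 abnormal samples. The groups overlapped, and the difference between Fluo-4 abnormal and Young samples was 0.22 (95% confidence interval 0.02 to 0.42, limma adjusted p = 0.175). The *Tnni2*/*Tnni1* ratio lay between 74265 and 891600. Its log2 mean was 1.28 lower in Fluo-4 abnormal than in Young samples (log2 difference -1.28, exact permutation p = 0.0571, adjusted p = 0.171) and differed by -1.19 from Fluo-4 normal samples (exact permutation p = 0.229, adjusted p = 0.411). With 1 TPM added to both genes these differences were -0.061 and -0.046, since *Tnni1* lies below 1 TPM. The second was -0.61 without Fluo-4 normal replicate 3. *Tnnc1* (chr14:30930232-30933708, plus strand) was listed at 0 in 6 of the 12 samples and reached 0.542 TPM in Fluo-4 abnormal sample 4, with overlap between all groups. Its whole span lies opposite *Nisch*, at 8.85 to 20.2 TPM. For troponin T and troponin C no fast-to-slow ratio could be formed where the slow gene was at 0. The slow gene made up at most 0.00196% of troponin T, 0.00135% of troponin I and 0.00127% of troponin C in any sample.

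*Tnnt2*, the cardiac and developmental troponin T (chr1:135763738-135780315, plus strand), stood between the high set and the slow troponins. It was 1.00, 0.48, 1.12 and 0.807 TPM in Young, 0.233, 0.924, 0.793 and 1.29 TPM in Fluo-4 normal and 1.40, 3.06, 1.46 and 0.928 TPM in Fluo-4 abnormal samples. Sample 2 of the Fluo-4 abnormal group was the highest, and sample 4 overlapped the other groups. The difference of 0.56 from Fluo-4 normal samples did not pass (95% confidence interval 0.06 to 1.06, limma adjusted p = 0.147), nor did that of 0.51 from Young samples (limma adjusted p = 0.213). Without Fluo-4 abnormal replicate 2 they were 0.35 and 0.29, and with a pseudocount of 0.1 they were 1.04 and 0.86, and none passed. *Tnni3*, cardiac troponin I, was listed at 0 in all 12 samples.

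The other thin filament genes were read from a list of 23, of which 21 could be tested. In Fluo-4 abnormal against Fluo-4 normal samples, 4 were called higher and 1 lower (7.36% and 1.99% of all genes). *Klhl40*, which stabilizes nebulin and leiomodin, was 0.58 higher (limma adjusted p = 0.00248). The actin capping genes *Capzb* and *Capza2* were 0.28 and 0.29 higher (limma adjusted p = 0.00737 and 0.0107). The other called genes were *Tmod1*, which caps the pointed end of the filament (0.43 higher, limma adjusted p = 0.0212), and *Kbtbd13*, a nemaline myopathy gene, which fell by 0.68 (limma adjusted p = 0.0288). Against Young samples 2 were called higher and 1 lower (6.09% and 2.41% of all genes). *Klhl40* (0.73) and the cofilin gene *Cfl2* (0.27) were higher and *Kbtbd13* (-1.11) lower (limma adjusted p = 0.000386, 0.0372 and 0.00238). Between Fluo-4 normal and Young samples *Capzb* alone passed, at -0.25 (limma adjusted p = 0.0443, with 0.589% of all genes called lower), followed by *Actc1* at -1.22 and *Lmod3* at -0.27, which did not pass. With TMM-type factors *Klhl40* (0.36 and 0.57) and *Kbtbd13* (-0.87 and -1.25) passed in both comparisons with the Fluo-4 abnormal samples, whereas *Capzb*, *Capza2*, *Tmod1* and *Cfl2* did not pass in any. Those factors added *Lmod3* (-0.40, limma adjusted p = 0.00291) and *Capza1* (-0.47, limma adjusted p = 0.0485) as lower than in Young samples, so that 1 gene was higher and 3 lower there. The list's median was 0.17, 0.09 and -0.10 in the 3 comparisons, against 0.10, 0.07 and -0.02 over all genes. *Acta1* (34219 to 47400 TPM over the 12 samples), nebulin (*Neb*, 871 to 2399 TPM) and *Tpm4*, the tropomyosin of non-muscle cells (1.83 to 9.55 TPM), did not pass in any comparison.

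Other genes of fiber type were counted to place these isoforms. Of 13 fast fiber genes, 5 were called higher and 0 lower in Fluo-4 abnormal than in Fluo-4 normal samples, where 7.36% and 1.99% of all genes were. Against Young samples 3 were called higher and 0 lower (6.09% and 2.41% of all genes), while 7 of the 13 had a negative difference. In Fluo-4 normal against Young samples 0 were called higher and 1 lower (*Casq1*, the fast calsequestrin, against 0.589% of all genes). The list's median was 0.30, -0.03 and -0.23 in the 3 comparisons (0.10, 0.07 and -0.02 over all genes), and 0.08, -0.20 and -0.18 with TMM-type factors. The 5 were *Mybpc2*, *Actn3*, *Myh4*, *Casq1* and *Myom2*, of which *Mybpc2* and *Actn3* passed with TMM-type factors. The 3 called against Young were *Mybpc2*, *Actn3* and *Myom2*, and with TMM-type factors *Actn3* did not pass there (0.43, limma adjusted p = 0.109). Of 11 slow fiber genes, 1 was higher (*Atp2a2*, the slow Ca2+ pump) and 1 lower (*Ankrd2*) in Fluo-4 abnormal than in Fluo-4 normal samples, beside 7.36% and 1.99% of all genes. In the other comparisons 0 passed by limma. There 1 (Fluo-4 abnormal against Young) and 3 (Fluo-4 normal against Young) had an unadjusted p under 0.05, as did 3323 and 1865 of the 14427 genes. The slow list's median was -0.09, 0.02 and 0.06 in the 3 comparisons. Genes of these lists other than the myosins are named because they passed, after their values were seen. *Myh4*, the type IIB myosin, averaged 9648 TPM in Young, 8206 in Fluo-4 normal and 13013 in Fluo-4 abnormal samples, 0.66 higher in the last than in Fluo-4 normal samples (limma adjusted p = 0.0198, and 0.44 with adjusted p = 0.170 under TMM-type factors). *Myh1*, the type IIX myosin, was 258, 147, 158 and 262 TPM in Young, 46.2, 542, 488 and 262 TPM in Fluo-4 normal and 64.5, 147, 48.5 and 44.3 TPM in Fluo-4 abnormal samples. It did not pass in any comparison, with -1.81 between the aged groups (limma adjusted p = 0.087). *Myh2*, type IIA, was 2.38 to 34.6 TPM, and *Myh7*, the slow myosin, was at most 0.205 TPM. *Myh4* was 96.9% to 98.6% of these 4 myosins in Young, 93.7% to 99.2% in Fluo-4 normal and 98.9% to 99.7% in Fluo-4 abnormal samples.

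The *Myh4* share was higher in every Fluo-4 abnormal sample than in every Young sample, and the Fluo-4 normal samples overlapped both groups. The share was not tested, and the *Myh1* level stands here beside the tropomyosin ratio. Fluo-4 normal sample 1 had a *Myh1* level of 46.2 TPM, within the range of the Fluo-4 abnormal samples, and a *Tpm1*/*Tpm2* ratio of 2.65. The other Fluo-4 normal samples, at 262 to 542 TPM, were above every Fluo-4 abnormal sample and had ratios of 2.18 to 2.59. Whether the ratio goes with the myosins was not tested. Fluo-4 abnormal sample 2 had 147 TPM, as did Young sample 2, and the ratios were 5.42 and 2.64. With the *Myh4* share as a covariate, a fit added after the data were seen, *Tpm1* was 0.63 higher in Fluo-4 abnormal than in Fluo-4 normal samples (limma adjusted p = 0.0402). *Tpm2* was then -0.40 (limma adjusted p = 0.0622), which did not pass. Against Young samples *Tpm1* and *Tpm2* both passed in that fit, and *Tpm2* passed there under every alternative (highest limma adjusted p = 0.049). *Tpm3* passed in that fit, at 1.00 against Fluo-4 normal (limma adjusted p = 0.0479) and 0.76 against Young samples (limma adjusted p = 0.0411).

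**Figure D5:**
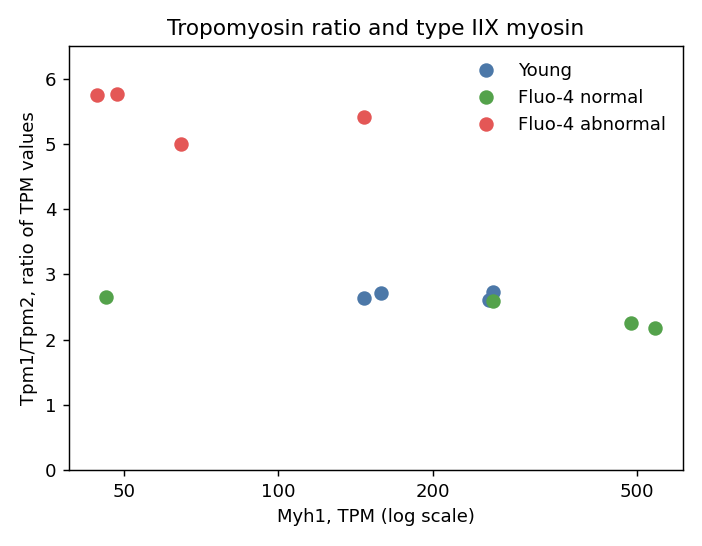
The *Tpm1*/*Tpm2* ratio of TPM values (y axis from 0) against the TPM of *Myh1*, the type IIX myosin gene (x axis, logarithmic), 1 point per sample in 3 groups of 4. The 4 Fluo-4 abnormal samples have ratios from 5.00 to 5.76 at 44.3 to 147 TPM. A Fluo-4 normal sample at 46.2 TPM has a ratio of 2.65, and the other Fluo-4 normal samples, at 262 to 542 TPM, have 2.18 to 2.59.

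Genes of development and denervation were also counted, since *Tnnt2* belongs to the early muscle program. Of 11 such genes, *Chrna1*, a subunit of the acetylcholine receptor, was higher in Fluo-4 abnormal than in Fluo-4 normal (0.55, limma adjusted p = 0.0177) and Young samples (0.50, limma adjusted p = 0.0281). *Myl4*, the embryonic and atrial myosin light chain, was higher in Fluo-4 abnormal (0.76, limma adjusted p = 0.0033) and in Fluo-4 normal samples (0.79, limma adjusted p = 0.00986) than in Young samples. With TMM-type factors *Myl4* passed in both, and *Chrna1*, at 0.35 and 0.34, in neither. In the main fit 1 of the 11 was called higher between the aged groups, where 7.36% of all genes were. In Fluo-4 abnormal against Young samples 2 were (6.09%), in Fluo-4 normal against Young 1 (0.561%), and 0 were called lower in any comparison. Called or not, 7 were higher and 4 lower in Fluo-4 abnormal than in Fluo-4 normal samples. The counts against Young samples were also 7 and 4, and between Fluo-4 normal and Young samples 6 and 5. The list's median was 0.34 between the aged groups, against 0.10 over all genes, and 0.09 and 0.06 in the comparisons with Young samples. With TMM-type factors these medians were 0.17, 0.02 and 0.07.

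The genes whose log2 levels were most like those of a member were taken over the 12 samples among 5989 others with a mean of at least 5 TPM, as a description. For *Tpm1* they were *Psmc2*, a proteasome ATPase subunit, *Mybpc2*, fast myosin-binding protein C, and *Nsfl1c*, a p97 cofactor (Pearson r = 0.95 for each). *Tpm2* was most like *Vegfb*, a vascular endothelial growth factor (r = 0.96), *Me3*, a mitochondrial malic enzyme (r = 0.95), and *Gng5*, a G protein subunit (r = 0.93). The fast troponins had less close partners, with *Dnajc2* for *Tnnt3* (r = 0.87), *Tmem141* for *Tnni2* (r = 0.91) and *Tsacc* for *Tnnc2* (r = 0.84) at the top. *Tpm3* was most like *Ptma* (r = 0.93). These points share the 3 groups, the libraries and the scaling to 1000000 TPM.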

How the data were processed

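RNA-seq values of 12 samples of isolated EDL myofibers were used. The authors prepared libraries from 10 ng of RNA with SMART-Seq v4, a full-length cDNA kit that keeps no strand, used DRAGEN 4.3 for alignment to GRCm39, and deposited each sample as a table of TPM. The annotation release is not given in the sources used here, and counts were not used here.

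Values were transformed to log2(TPM + 1), which understates the change of low genes. The 3 groups were fitted in limma 3.58.1 (R 4.3.3) with a variance trend over 14427 protein-coding and mitochondrially-encoded genes with a group mean of at least 0.02 TPM, with Benjamini-Hochberg adjustment over all of them. The fit was tested on simulated data. Ratios were compared by 2-sided exact permutation (scipy 1.17.1). Of 5 ratios, those of troponin T and C had a slow gene at 0 and were not tested, which left 9 tests of 15. Positions and transcripts came from GENCODE vM39, and copies from blastn 2.17.0 (95% identity over 100 bases).

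All members are named. Of the other lists, the 3 thin filament genes with the smallest p per comparison, preset genes and called genes are named. The members and lists were chosen with earlier results of these data known. After each group mean was subtracted, same-numbered aged samples had correlations of 0.44, 0.37, 0.43 and 0.30 over 5994 genes. Other pairs had -0.36 to 0.23, so the numbers were read as pairing the aged samples. The main limma fit and the exact permutations left this pairing out, and it entered only as an alternative. As alternatives, TPM was rescaled by TMM-type factors (30% and 5% trimmed) or after mitochondrially-encoded genes were dropped, the filter was removed or raised to 5 TPM, the pseudocount was set to 0.1, every annotated gene entered the fit, other groups were dropped, the replicate number was a block, and single samples were left out. The *Myh4* share as a covariate was added after the data were seen.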

Additional observations from a re-analysis of the deposited data

Results flagged for a closer look

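In 39 groups of 4 values (10 genes and 3 ratios in 3 groups), 4 samples stood apart from the rest of their group by Dixon's test at 95%. In 3 of them the other samples of the group were all listed at 0, where any value above 0 stands apart, so their number is not set against the 1 in 20 groups that chance flags. *Tnnc2* in Young sample 2 was 41556 TPM, below the other Young samples at 43556 to 43894 TPM. *Tnnt1* was 0.052 TPM in Young sample 3 and 0.355 TPM in Fluo-4 abnormal sample 4, in groups otherwise listed at 0. *Tnnc1* was 0.135 TPM in Young sample 1, with the other Young samples listed at 0.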

How the results depend on the processing

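Of the 2 members called between Fluo-4 abnormal and Fluo-4 normal samples, 1 was called with TMM-type factors, and 2 or 3 when a sample was left out. Of the 2 called against Young, 1 was called with TMM-type factors and 1 with the replicate block, *Tpm2* each time, and 2 in every fit without a sample. No member was called between Fluo-4 normal and Young samples under any alternative. With TMM-type factors the *Tpm1* difference was 0.48 and 0.40, and the replicate block (0.57 against Young) changed no other member's call. The Young samples share only a number with the aged samples. TMM-type factors turned small, uncalled differences: *Tnnt3* to -0.088, -0.058 and 0.029 in the 3 comparisons, *Tnni2* to -0.11 and -0.0078, and *Tnnc2* to -0.042 and -0.14 against Fluo-4 normal and Young samples. Without mitochondrially-encoded genes, *Tnnc2* against Young was -0.0014 and *Tnnt3* in Fluo-4 normal against Young 0.0062. With the *Myh4* share, *Tnnc2* against Young was -0.0057, and in Fluo-4 normal against Young *Tpm2* was -0.025 and *Tpm3* -0.23. The *Tnni2*/*Tnni1* ratio in that comparison was 0.34 from linear means. Leaving out a sample gave ranges across 0 for these uncalled values: *Tnnc1* between the aged groups (-0.083 to 0.17), *Tnnc2* and *Tnnt1* in Fluo-4 abnormal against Young (-0.018 to 0.062 and -0.018 to 0.13), and in Fluo-4 normal against Young *Tnni1* (-0.012 to 0.12), *Tnnt2* (-0.18 to 0.12), *Tnnt3* (-0.056 to 0.0046), *Tpm2* (-0.026 to 0.071), *Tpm3* (-0.20 to 0.32) and *Tnni2*/*Tnni1* (-0.67 to 0.46). The log2 *Tpm1*/*Tpm3* difference ranged from -0.11 to 0.58, -0.057 to 0.19 and -0.50 to 0.19. That of *Tpm1*/*Tpm2* stayed between 1.14 and 1.23 and between 1.01 and 1.08 against the other groups. These fits of 3 against 4 samples, and the paired sign-flip of ratios with the replicate block (smallest p 0.125), cannot reach 0.05. Over all genes, TMM-type factors changed the calls between the aged groups from 1062 higher and 287 lower to 335 higher and 545 lower, and those against Young from 879 and 347 to 464 and 679. Other counts of genes past 1.5 times were 566 between the aged groups with only those fitted and 820 with the *Myh4* share, 684 against Young with the replicate block, and, between Fluo-4 normal and Young, 266 with a filter of 5 TPM, 69 with only those groups and 0 with the block (limma, 1983 at an unadjusted p under 0.05). Without a sample, the counts ranged from 665 (without Fluo-4 abnormal 2) to 1456 between the aged groups, where 1349 were called, and from 604 (without Young 4) to 1676 against Young, where 1226 were called. They fell past 1.5 times there too without Young 1 (715), Fluo-4 abnormal 2 (742) and Fluo-4 abnormal 4 (788). Between Fluo-4 normal and Young, where 166 were called, they ranged from 55 to 207, with 72, 55 and 59 without Young 1, 2 and 3 and 91, 103 and 59 without Fluo-4 normal 2, 3 and 4. The troponin T and C ratios had no value to compare, and no alternative was run for them. The depth behind the low genes is unknown. The causes of these changes were not tested.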
